A study of Mus musculus with 11 samples.

Results

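Stfa3, Twist2, Pdzrn3 and Elmod1 are 4 of the 17097 genes measured here in sorted mouse T cells, and each was represented by 1 probe set on the array (1419709_PM_at, 1448925_PM_at, 1416846_PM_a_at and 1434083_PM_a_at). The genes had been picked from earlier results of these same arrays, in which the effector conventional T cells of the lacrimal gland had much more signal than the other subsets. Their levels and differences are therefore given as a description, without a test. All cells came from male NOD mice aged 16 weeks, a strain prone to autoimmune disease, in which lymphocytes infiltrate the lacrimal gland. From the gland, 3 arrays each held effector regulatory T cells (LG_eTreg), effector conventional T cells (LG_eTconv) and PD1- ICOS- cells that the labels call naive (LG_naive). All 3 subsets were sorted as live cells positive for CD4 and TCRbeta. The labels give both effector subsets the same gate, high for PD1 and ICOS and low for CD73 and CD200, so the gate as written does not separate them. From the spleens of the same animals, 1 array held total CD4+ T cells (Spl_CD4) and 1 held total CD8+ T cells (Spl_CD8), which served as controls. The labels do not say whether arrays of a group came from separate mice, so a p-value below reflects how far these samples scatter, and that scatter may be technical.

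The 4 genes encode intracellular proteins of different kinds. Stfa3 encodes stefin A3, a cytosolic inhibitor of papain-like cysteine proteases such as the cathepsins, from a family of closely similar genes that expanded in the mouse and is known from myeloid cells. Twist2 encodes a basic helix-loop-helix transcription factor known from mesenchyme and dermis, which pairs with E proteins and in mice restrains cytokine genes driven by NF-kB. Pdzrn3 encodes a RING-type ubiquitin ligase with PDZ domains, known for its action on the muscle receptor kinase MuSK and on Wnt polarity signalling. Elmod1 encodes an ELMO domain protein that stimulates GTP hydrolysis by GTPases of the Arf and Arl families.

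The promoter windows are printed because the 3 genes shared one expression pattern on these arrays, so their sequences can be set side by side. RefSeq (GRCm38.p6) gave a window for 3 of the 4 genes, shown as the 250 bases upstream of the annotated start, 5′ to 3′ on the strand of the gene. The windows lie at chr16:36455393-36455642 on the minus strand for Stfa3, chr1:91801211-91801460 on the plus strand for Twist2 and chr6:101377898-101378147 on the minus strand for Pdzrn3. Capitals mark matches, on either strand, to the NFAT core GGAAA (read as its reverse complement where it lies on the other strand) and to the GATA motif AGATAA.
Stfa3: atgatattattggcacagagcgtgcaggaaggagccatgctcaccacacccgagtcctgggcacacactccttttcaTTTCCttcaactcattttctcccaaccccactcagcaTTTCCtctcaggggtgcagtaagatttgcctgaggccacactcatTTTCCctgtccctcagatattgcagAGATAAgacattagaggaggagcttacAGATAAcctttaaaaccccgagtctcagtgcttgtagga
Twist2: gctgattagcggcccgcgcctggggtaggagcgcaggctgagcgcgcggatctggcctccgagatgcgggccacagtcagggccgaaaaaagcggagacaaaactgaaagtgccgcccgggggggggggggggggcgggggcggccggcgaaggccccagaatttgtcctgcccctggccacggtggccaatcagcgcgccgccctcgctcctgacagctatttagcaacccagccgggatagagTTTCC
Pdzrn3: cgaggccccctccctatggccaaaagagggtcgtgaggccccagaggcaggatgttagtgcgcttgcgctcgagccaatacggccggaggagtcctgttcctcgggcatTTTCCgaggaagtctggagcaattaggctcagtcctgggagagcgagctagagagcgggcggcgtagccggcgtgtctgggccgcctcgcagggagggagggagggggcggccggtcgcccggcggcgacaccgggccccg
The Stfa3 window held 3 NFAT core matches, at -173, -136 and -91 from the start, and 2 GATA matches, at -66 and -39. The Twist2 window held 1 NFAT core match at -5, and the Pdzrn3 window held 1 at -141. Among 32851 RefSeq windows of the same length, 55.6% held at least 1 NFAT core match and 9.99% at least 1 GATA match. The E-box CANNTG (66.2% of all windows), the AP-1 motif TGANTCA (6.75%), the STAT motif TTCNNNGAA (7.02%) and the TATA motif TATAAA (12.4%) had no match in the 3 windows. The motifs searched do not overlap one another in these windows. The windows also differed in base composition: 48.4% of the Stfa3 window was G or C, against 68.8% for Twist2 and 69.2% for Pdzrn3.

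The deposited values were read as log2 signals, since RMA works on that scale and no source used here states the base. The background limit of an array, taken as the highest value among its nonspecific control probe sets, ran from 0.94 to 1.70, the highest signal of any gene from 10.7 to 10.9, and between 55.5% and 65.6% of genes lay above the limit. LG_eTreg 3 and LG_naive 1 had the highest 18S ribosomal control signals (6.76 and 6.15, with 3.57 to 5.34 on the other arrays), and LG_eTconv 1 had the largest excess of 3′ over 5′ signal for the actin control (3.35, with 1.53 to 2.86 on the others). The T cell gene Cd3e had a signal of 9.19 to 9.78 on all 11 arrays. Foxp3, the transcription factor of regulatory T cells, measured 8.13 to 8.21 on the LG_eTreg arrays, 3.61 to 4.85 on the LG_eTconv arrays and 2.86 to 4.95 on the LG_naive arrays. Pdcd1, which encodes PD1, measured 6.80 to 8.16 on LG_eTreg, 6.77 to 7.72 on LG_eTconv and 1.63 to 2.15 on LG_naive arrays. The Foxp3 and Pdcd1 values go with the labels. Icos measured 9.70 to 9.95 on LG_eTreg, 9.64 to 9.76 on LG_eTconv and 8.50 to 8.77 on LG_naive arrays, with 8.38 on Spl_CD4. Its transcript was thus lower in LG_naive than in the effector subsets, but far above background in a gate labelled ICOS-. Cd8a measured 5.13 to 5.23 on LG_eTreg, 6.16 to 6.83 on LG_eTconv, 4.51 to 5.19 on LG_naive, 4.45 on Spl_CD4 and 9.35 on Spl_CD8. Precision is limited by how few arrays there are, and values below the background limit are only bounded.

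Stfa3 was high in effector conventional cells of the gland and low in the other gland subsets. Its log2 signal was 1.78, 3.11 and 2.93 on the LG_eTreg arrays, 9.97, 10.01 and 9.94 on the LG_eTconv arrays and 1.06, 1.20 and 2.76 on the LG_naive arrays, with 6.22 on Spl_CD4 and 0.84 on Spl_CD8. The LG_eTconv arrays lay within 0.1 of one another, close to the top of the array's range, and no array of another group reached them. LG_naive 1, LG_naive 2 and Spl_CD8 did not exceed their background limits. Stfa3 averaged 9.97 ± 0.04 in LG_eTconv and 1.67 ± 0.94 in LG_naive (SD, n = 3 each), a measured difference of 8.30 on the log2 scale (SE 0.48). With the 2 LG_naive arrays below their limits raised to them, the difference was 8.08, or 271-fold. It averaged 2.61 ± 0.72 in LG_eTreg, a difference of -7.37 from LG_eTconv (SE 0.48), or 165-fold lower. In bulk samples such as these, fewer cells with a transcript and less transcript per cell cannot be told apart. Close copies of Stfa3 exist in the mouse genome, and their part in this probe set's signal was not tested.

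Twist2 was above background on the LG_eTconv arrays and on no other array. Its log2 signal was -0.08, -0.08 and -0.01 in LG_eTreg, 6.32, 5.40 and 6.01 in LG_eTconv and 0.00, -0.11 and 0.04 in LG_naive, with 0.13 on Spl_CD4 and -0.35 on Spl_CD8. All 8 arrays outside LG_eTconv lay below their background limits, and values there have no order. Because the lower group was only bounded, the signal in LG_eTconv (5.91 ± 0.47, SD, n = 3) was at least 22.1-fold higher than in LG_naive. For the same reason it was at least 25.8-fold lower in LG_eTreg than in LG_eTconv. These bounds correspond to 4.47 and 4.69 on the log2 scale. Twist2 had the widest spread of the 4 genes among LG_eTconv arrays, with LG_eTconv 2 the lowest of the 3.

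Pdzrn3 followed the same split. It measured 1.92, 2.24 and 2.06 in LG_eTreg, 7.34, 7.10 and 7.20 in LG_eTconv and 0.68, 1.40 and 0.88 in LG_naive, with 2.18 on Spl_CD4 and 0.53 on Spl_CD8. The LG_eTconv arrays stood apart from all others, and the LG_eTreg arrays all exceeded both their limits and every LG_naive array. Pdzrn3 averaged 7.21 ± 0.12 in LG_eTconv and 0.99 ± 0.37 in LG_naive (SD, n = 3 each), a measured log2 difference of 6.22 (SE 0.19). LG_naive 1 and LG_naive 3 lay below their limits, and with them raised to the limit the difference was 5.71, or 52.4-fold. LG_eTreg (2.08 ± 0.16) differed from LG_eTconv by -5.14 (SE 0.19), or 35.2-fold lower.

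Elmod1 had log2 signals of 2.10, 2.17 and 1.30 in LG_eTreg, 7.16, 7.31 and 7.24 in LG_eTconv and 0.80, 0.82 and 1.48 in LG_naive, with 1.51 on Spl_CD4 and 2.02 on Spl_CD8. Only the LG_eTconv arrays were far above background. LG_eTreg 1 and LG_eTreg 2 exceeded their limits of 1.26 and 0.94, and Spl_CD8 its limit of 1.08. LG_naive 3 exceeded its limit of 1.41 slightly. Elmod1 averaged 7.23 ± 0.08 in LG_eTconv and 1.03 ± 0.39 in LG_naive (SD, n = 3 each), a measured log2 difference of 6.20 (SE 0.26). With the 2 LG_naive arrays below their limits raised to them, it was 5.77, or 54.5-fold. LG_eTreg (1.86 ± 0.49) differed from LG_eTconv by -5.38 (SE 0.26), and with the 1 LG_eTreg array below its limit raised to it the size of that difference was 5.32.

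**Figure D1:**
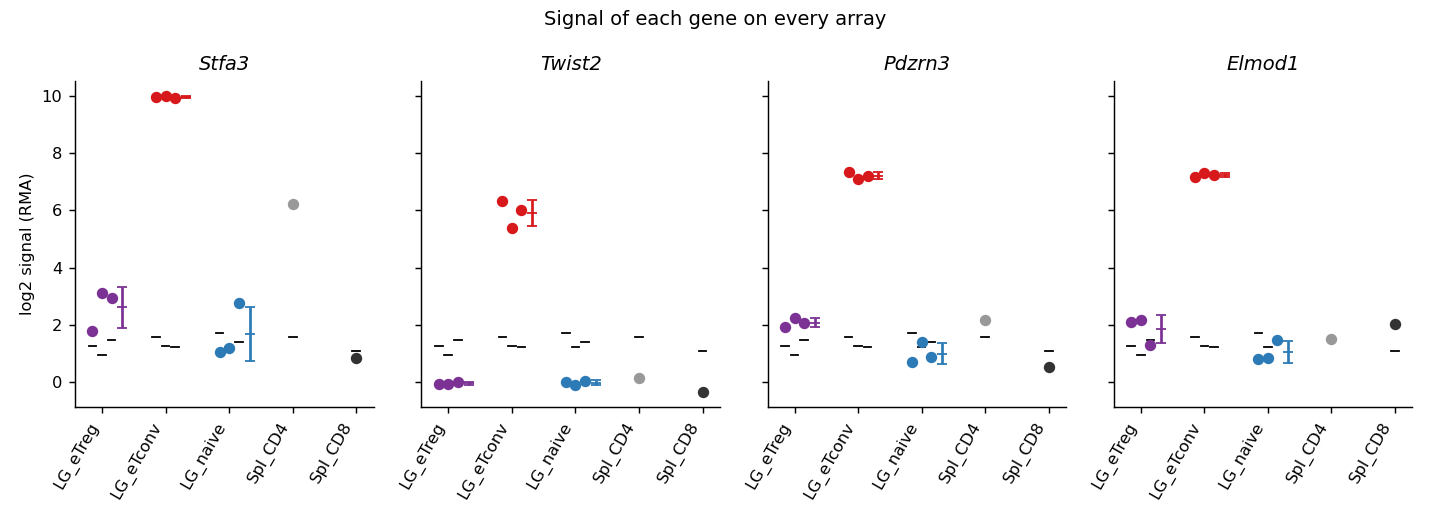
Log2 signal of Stfa3, Twist2, Pdzrn3 and Elmod1 (vertical axis) on each of the 11 arrays, by group (horizontal axis). Points are arrays, short black lines the background limit of each array, and coloured bars the group mean ± SD of the 3 gland arrays. The LG_eTconv arrays lie between 5.40 and 10.01 and stand above every other array for each gene.

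In both comparisons that involve LG_eTconv, the arrays of the 4 genes did not overlap between groups. Of all genes, 13.8% were higher without overlap in LG_eTconv than in LG_naive and 9.63% were lower without overlap in LG_eTreg than in LG_eTconv, and nothing is read from the count because the genes were picked for these contrasts. The gap between the nearest arrays of LG_eTconv and LG_naive was 7.18 for Stfa3, 5.69 for Pdzrn3 and 5.68 for Elmod1 on the log2 scale. Between LG_eTreg and LG_eTconv it was 6.83, 4.86 and 4.98 in the same order of genes. With LG_naive 1, LG_eTconv 1 and LG_eTreg 3 left out together, the differences LG_eTconv minus LG_naive were 8.00 for Stfa3, 6.01 for Pdzrn3 and 6.12 for Elmod1. Few genes shared the pattern. Of the 17097 genes, 308 (1.80%) had a mean in LG_eTconv at least 1 log2 unit above both LG_eTreg and LG_naive and 109 (0.638%) at least 2.

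**Figure D2:**
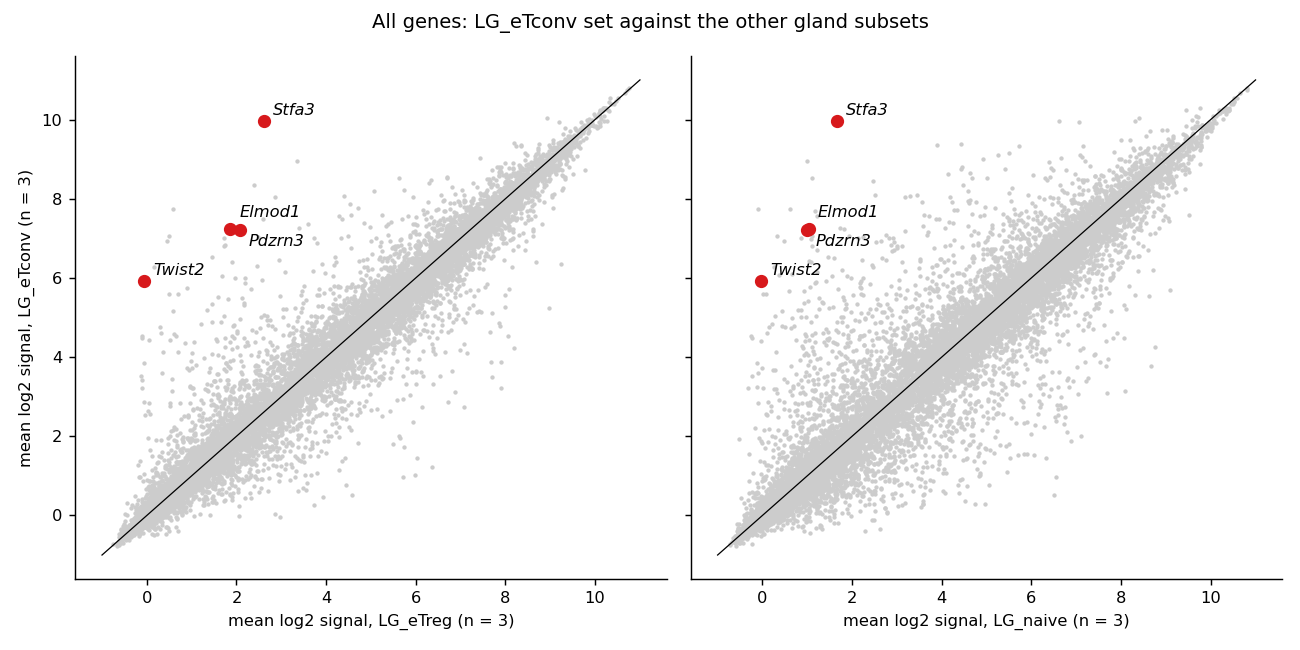
Mean log2 signal of all 17097 genes in LG_eTconv (vertical axis, n = 3) against LG_eTreg (left) and LG_naive (right, n = 3 each). Grey points are genes, the line marks equal signal, and red points are the 4 genes. Stfa3 lies farthest above the line in both panels, with differences of 7.37 and 8.30, and the other 3 genes lie at least 5.14 above it.

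In effector regulatory cells the means of Pdzrn3, Stfa3 and Elmod1 were modestly above those of the naive gate, and far below LG_eTconv. Stfa3 and Pdzrn3 exceeded the limit on all 3 LG_eTreg arrays and on 1 of 3 LG_naive arrays. Pdzrn3 differed by 1.08 between LG_eTreg and LG_naive (SE 0.19), or by 0.57 with the 2 LG_naive arrays below their limits raised to them, and its groups did not overlap, as was the case in this direction for 13.3% of all genes. The nearest Pdzrn3 arrays were 0.52 apart. Stfa3 differed by 0.93 (SE 0.48) and Elmod1 by 0.82 (SE 0.26), and in both the arrays of LG_eTreg and LG_naive overlapped. Leaving out 1 array at a time moved the Stfa3 difference between 0.63 without LG_naive 1 and 1.47 without LG_naive 3, and it was 0.47 without LG_naive 1, LG_eTconv 1 and LG_eTreg 3. For Twist2 all 6 arrays lay below the background limit, so no fold is given. Setting all values to at least 1.70 left differences of 0.38 for Pdzrn3 and 0.29 for Elmod1.

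In the spleen the 4 genes parted. Against the Stfa3 signal of 6.22 on Spl_CD4, the LG_eTconv mean was higher by 3.76. Spl_CD8 lay below its limit, so Spl_CD4 minus Spl_CD8 was at least 5.13. Spl_CD4 ranked between LG_eTconv and LG_eTreg for Stfa3, and the single array lay outside the range of both groups. Pdzrn3 on Spl_CD4 (2.18) lay inside the range of LG_eTreg and above every LG_naive array. Elmod1 on Spl_CD8 (2.02) lay inside the range of LG_eTreg, and Elmod1 on Spl_CD4 (1.51) was below its array's limit. Twist2 was below the limit on both spleen arrays. With 1 array per spleen group these differences have no replicate check.

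Some neutrophil transcripts were also present on the spleen arrays. S100a8 and S100a9, calprotectin subunits abundant in neutrophils, measured 0.24 to 0.83 and 0.40 to 1.33 on the LG_eTconv arrays, where Stfa3 was highest. On Spl_CD4 they measured 5.22 and 6.70, and on Spl_CD8, where Stfa3 was below background, 6.04 and 7.57. The summed log2 level of 11 neutrophil markers was 8.36 to 9.43 on LG_eTreg, 4.50 to 5.89 on LG_eTconv, 6.64 to 8.43 on LG_naive, 17.4 on Spl_CD4 and 22.5 on Spl_CD8. On the LG_eTconv arrays 10 of the 11 markers lay at or below the limit throughout. On Spl_CD4 8 of the 11 did so, and on Spl_CD8 6. In the gland comparisons 0 of these markers was higher and 1 lower in LG_eTconv than in LG_naive, and 1 was higher and 0 lower in LG_eTreg than in LG_eTconv. The B cell gene Ms4a1 measured 6.97 on Spl_CD4 and 7.58 on Spl_CD8, while Il21, an effector CD4 cytokine, measured 5.54 to 5.73 on LG_eTreg, 8.34 to 8.66 on LG_eTconv, 0.89 to 1.27 on LG_naive, 2.30 on Spl_CD4 and 0.87 on Spl_CD8. Other neutrophil markers were distributed differently from S100a8 and S100a9. Mmp9, a gelatinase, averaged 3.94 in LG_eTreg and measured 1.68 on Spl_CD4 and 0.88 on Spl_CD8, and Lcn2, an iron-chelating lipocalin, averaged 1.24 in LG_eTreg, 1.34 in LG_eTconv and 3.65 in LG_naive. The part of neutrophil transcripts in the Stfa3 signal of Spl_CD4 was not tested.

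**Figure D3:**
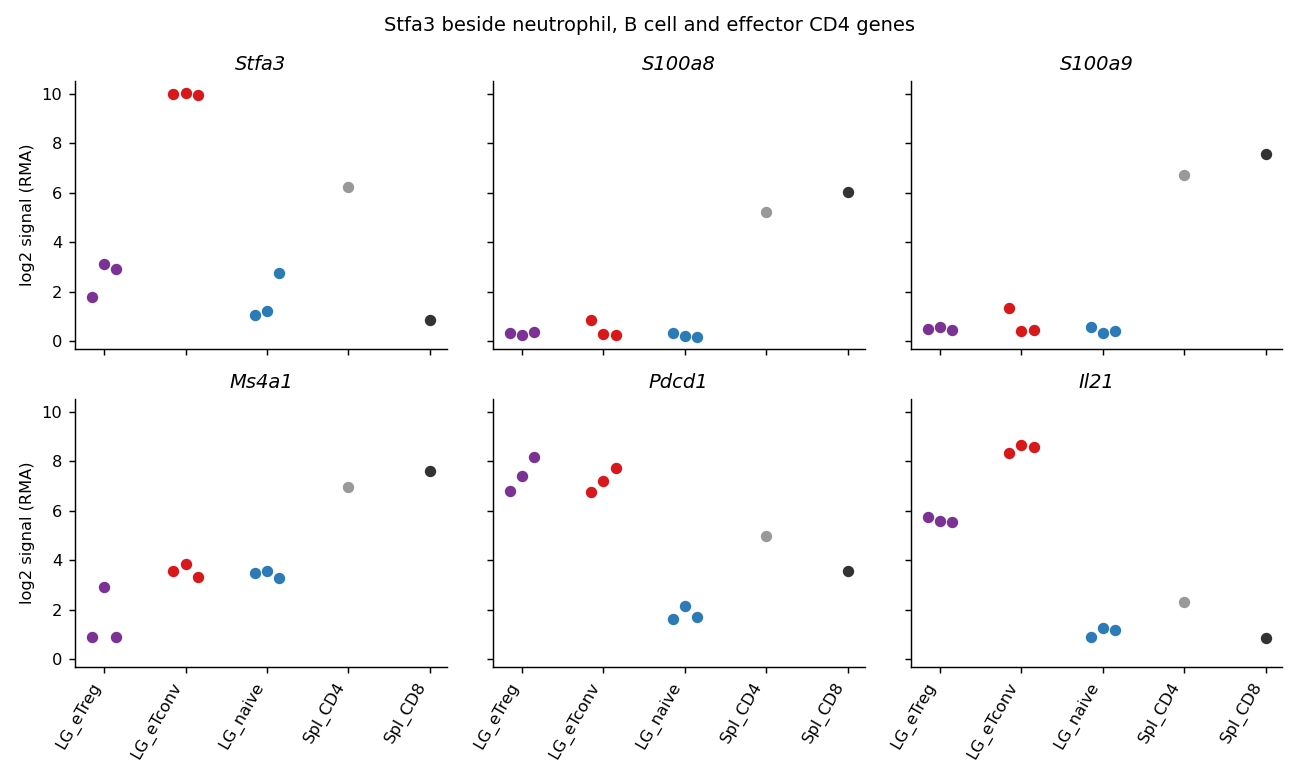
Log2 signal (vertical axis) of Stfa3, the neutrophil genes S100a8 and S100a9, the B cell gene Ms4a1 and the effector CD4 genes Pdcd1 and Il21 on each of the 11 arrays, by group (horizontal axis). Points are arrays. Stfa3 is 6.22 on Spl_CD4 and 0.84 on Spl_CD8, where S100a8 is 5.22 and 6.04.

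Fibroblast markers, from cells in which Twist2 is better known, and neuronal markers were mostly at background in LG_eTconv. The summed level of 13 fibroblast markers was 10.1 to 14.6 on LG_eTreg, 10.7 to 13.3 on LG_eTconv and 12.8 to 22.9 on LG_naive arrays, with 10.8 on Spl_CD4 and 9.29 on Spl_CD8. Of the 13, 8 lay at or below the limit on all LG_eTconv arrays, and 0 passed the limma test (adjusted p under 0.05) in any gland comparison. The summed level of 9 neuronal markers was 4.09 to 5.81 on LG_eTreg, 4.27 to 6.15 on LG_eTconv and 4.04 to 5.57 on LG_naive arrays, with 4.30 on Spl_CD4 and 4.27 on Spl_CD8. Of these 9, 7 lay at or below the limit on all LG_eTconv arrays and 0 passed the test in any comparison, as did 0 of 7 mast cell markers. The sum of 7 T cell genes was 58.1 to 60.2 on LG_eTreg, 57.9 to 59.9 on LG_eTconv and 57.1 to 58.3 on LG_naive, and 2 of the 7 were higher in each effector subset than in LG_naive.

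The genes whose signal most resembled that of the 4 across the 11 arrays were also high in LG_eTconv. Likeness was Pearson's r over the 11 arrays, among 1680 genes whose group means spanned at least 2 log2 units, and the 5 closest to each of the 4 genes gave 17 different genes. All points share the split between 3 LG_eTconv arrays and the rest, so these r values describe that split. Between the 4 genes themselves r ran from 0.918 (Elmod1 and Stfa3) to 0.978 (Elmod1 and Twist2). Closest to Twist2 were Col24a1 (r = 0.997), a fibrillar collagen chain, Kcnc2 (0.996), a potassium channel, and Rph3a (0.995), a Rab effector of vesicle release. Col24a1 averaged 0.49 ± 0.12 in LG_eTreg, 7.06 ± 0.08 in LG_eTconv and 0.33 ± 0.09 in LG_naive (SD, n = 3 each). Tiam2, a Rac exchange factor, and Gucy2g, a receptor guanylyl cyclase, followed (0.995 each).

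Closest to Elmod1 were Frzb (0.989), a secreted Wnt antagonist, Gucy2g (0.987), Nts (0.987), which encodes neurotensin, Cd109 (0.986), a surface protein that binds TGF-beta, and Col24a1 (0.985). Closest to Pdzrn3 were Edn3 (0.985), which encodes endothelin 3, Chn1 (0.985), a Rac GTPase-activating protein, the noncoding RNA Rian (0.984), Vat1l (0.982) and Lpar3 (0.981), a receptor for lysophosphatidic acid. Stfa3 had the lowest leading values: Lpar3 (0.962), Zbtb32 (0.961), a transcriptional repressor of lymphocytes, Grb10 (0.961), an adaptor of growth factor receptors, Cpne7 (0.960) and Serpina9 (0.956), a serpin known from human germinal centre B cells. Of the 5 genes nearest Stfa3, Zbtb32, Grb10 and Cpne7 were above the background limit on Spl_CD4, as Stfa3 was, with signals of 3.55, 2.80 and 2.30. On Spl_CD8 Zbtb32 measured 1.69, while Grb10 and Cpne7 lay below the limit. Lpar3 and Serpina9 lay below the limit on both spleen arrays.

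**Figure D4:**
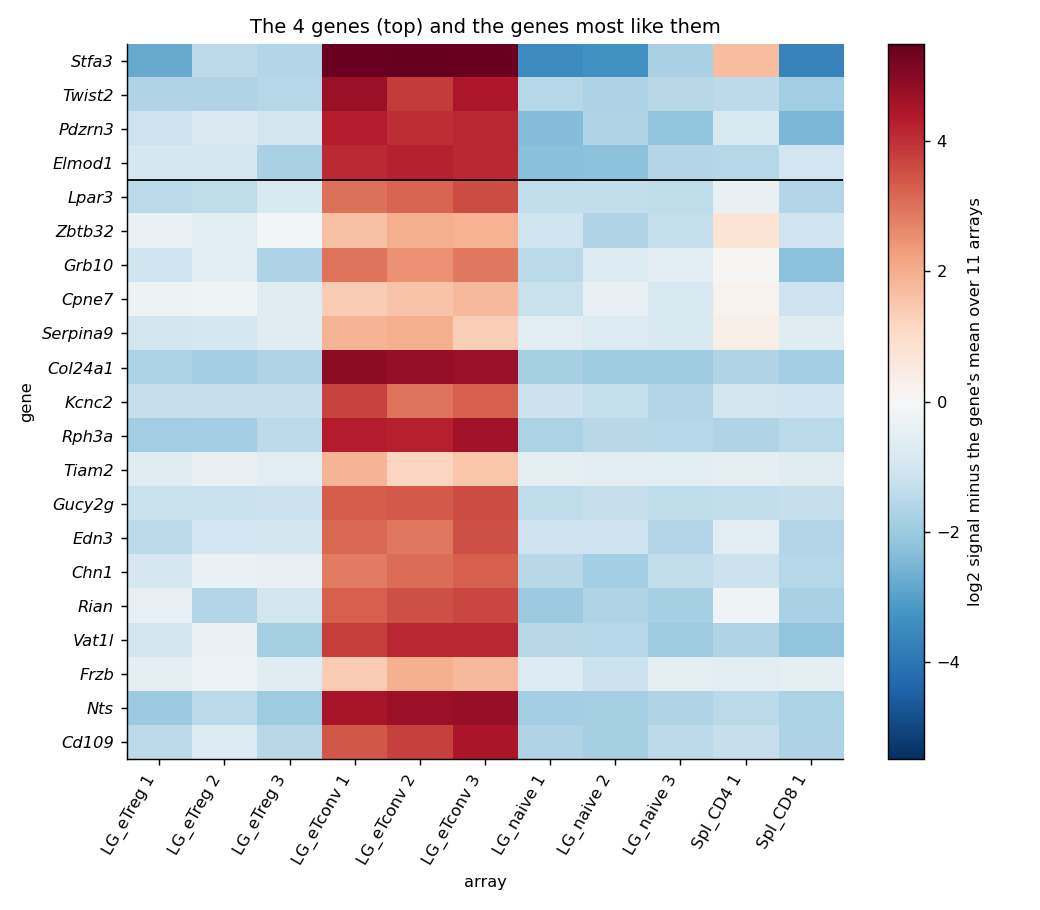
Log2 signal minus each gene's mean over the 11 arrays (colour) for the 4 genes, above the black line, and the 17 genes with the highest r to any of them. Arrays run across and genes run down. The 3 LG_eTconv columns are red throughout, and Stfa3 and Zbtb32 are the reddest of the rest on Spl_CD4.

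Relatives and functional partners of the 4 genes were read from the same limma fit over the 9 gland arrays. So were 5 interleukin 12 and T helper 1 genes, for which no link to the 4 genes is stated here. P-values were adjusted by Benjamini-Hochberg across all genes, with a threshold of 0.05. Of 60 measured, 16 were higher and 5 lower in LG_eTconv than in LG_naive (35.0%). Of all genes 13.5% were called in that comparison, 6.45% higher and 7.02% lower. In LG_eTreg minus LG_naive 11 were higher and 5 lower (26.7%), where 11.7% of all genes were called, 6.20% higher and 5.47% lower. In LG_eTreg minus LG_eTconv 1 was higher and 6 lower (11.7%), where 5.70% of all genes were called, 2.94% higher and 2.76% lower. The last count fell to 4 without LG_eTconv 2 or without LG_eTreg 3. The median differences of the 60 were 0.02, 0.06 and -0.00 in the 3 comparisons, where those of all genes were -0.03, -0.02 and 0.01. These lists were chosen with earlier results of these data known, and all genes were not matched to them by signal level. Nothing is therefore read from the shares of listed genes called against those of all genes.

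Of 8 close relatives of the 4 genes, Lnx2 alone passed the limma test in a gland comparison of the main fit. Stfa2l1, another stefin A gene, lay below the limit on all 9 gland arrays, as did Pdzrn4, the relative of Pdzrn3. Cstb, which encodes stefin B, averaged 8.63 ± 0.05 in LG_eTreg, 8.38 ± 0.09 in LG_eTconv and 8.14 ± 0.25 in LG_naive (SD, n = 3 each). Its differences were 0.24 for LG_eTconv minus LG_naive (limma adjusted p = 0.322) and 0.49 for LG_eTreg minus LG_naive (0.0505). The second passed without LG_naive 1 (0.0104) and without LG_naive 1, LG_eTconv 1 and LG_eTreg 3 together (0.0348). It also passed with the mean of its probe sets (0.0499) and with a trended and robust prior in limma (0.0236). Twist1, the paralog of Twist2, averaged 1.88 ± 0.03, 2.33 ± 0.30 and 2.02 ± 0.04 in LG_eTreg, LG_eTconv and LG_naive, and LG_eTconv minus LG_naive was 0.31 (limma adjusted p = 0.233). Lnx1, a ligase related to Pdzrn3, differed by 0.41 in the same comparison (0.168), Elmod2 by -0.18 (0.493) and Elmod3 by -0.45 (0.384). Lnx2, a ligase of the same family, averaged 7.56 ± 0.29 in LG_eTreg, 7.91 ± 0.13 in LG_eTconv and 6.98 ± 0.01 in LG_naive. It was higher by 0.93 in LG_eTconv (limma adjusted p = 0.00371) and by 0.58 in LG_eTreg (0.0403) than in LG_naive, and the second call ended when any single array but LG_eTreg 3 was left out (adjusted p up to 0.111).

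Among 6 stefins and cystatins, 1 was higher and 0 lower in LG_eTconv than in LG_naive (median -0.01), 1 and 0 in LG_eTreg than in LG_naive (0.25), and 0 changed between the effector subsets (0.13). The gene that rose was Cst7, which encodes cystatin F of cytotoxic cell granules. It measured 7.44, 7.17 and 7.56 in LG_eTreg, 6.85, 7.08 and 7.08 in LG_eTconv and 2.39, 2.98 and 3.12 in LG_naive. Both effector subsets were thus high, unlike Stfa3. Cst7 was higher than in LG_naive by 4.56 in LG_eTreg (SE 0.20, limma adjusted p = 5.03e-06) and by 4.17 in LG_eTconv (SE 0.20, 5.25e-06), and LG_eTreg minus LG_eTconv was 0.39 (0.409).

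The cathepsins, targets of this inhibitor class, were split in direction. Of 10, 2 rose and 3 fell in LG_eTconv against LG_naive (median -0.23), 2 rose and 2 fell in LG_eTreg against LG_naive (-0.12), and 0 passed between the effector subsets (0.06). Ctsh, an aminopeptidase of lysosomes, averaged 3.01 ± 0.56 in LG_eTreg, 2.71 ± 0.31 in LG_eTconv and 6.68 ± 0.22 in LG_naive, with differences from LG_naive of -3.68 and -3.97 (limma adjusted p = 7.42e-05 and 3.81e-05). Ctsl, an endopeptidase of lysosomes, differed by -3.19 in LG_eTreg and by -3.38 in LG_eTconv (0.00182 and 0.00115). Ctsw, a cathepsin of cytotoxic lymphocytes, rose in both, by 1.58 in LG_eTreg and 1.97 in LG_eTconv (0.000152 and 3.81e-05). Ctsc, which activates granzymes, was lower by 1.18 in LG_eTconv than in LG_naive (difference -1.18, 0.00625), and LG_eTreg minus LG_eTconv was 0.87 (0.0513, but 0.0146 without LG_eTreg 1 and 0.0398 without LG_eTconv 3). The first Ctsc call ended with the mean of its 3 probe sets (-0.64, 0.234). Markers of monocytes and macrophages moved with Ctsh and Ctsl: 6 of 8 fell in each effector subset against LG_naive, and their summed level was 21.3 to 22.5 on LG_eTreg, 18.4 to 20.5 on LG_eTconv and 32.1 to 35.6 on LG_naive arrays. Of 9 gland epithelial markers, 2 were lower in LG_eTreg and 3 in LG_eTconv than in LG_naive, and the others were not called. Their summed levels were 26.4 to 29.3, 20.9 to 23.5 and 32.8 to 41.0 on the 3 subsets. Epcam averaged 6.37 in LG_eTreg and 5.66 in LG_naive. Epcam and Krt18 were higher in LG_eTreg than in LG_eTconv (3.06 and 1.42, limma adjusted p = 0.000645 and 0.0311), where Ctsh and Ctsl were not called. The part of macrophage and epithelial transcripts in the cathepsin differences was not tested.

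**Figure D5:**
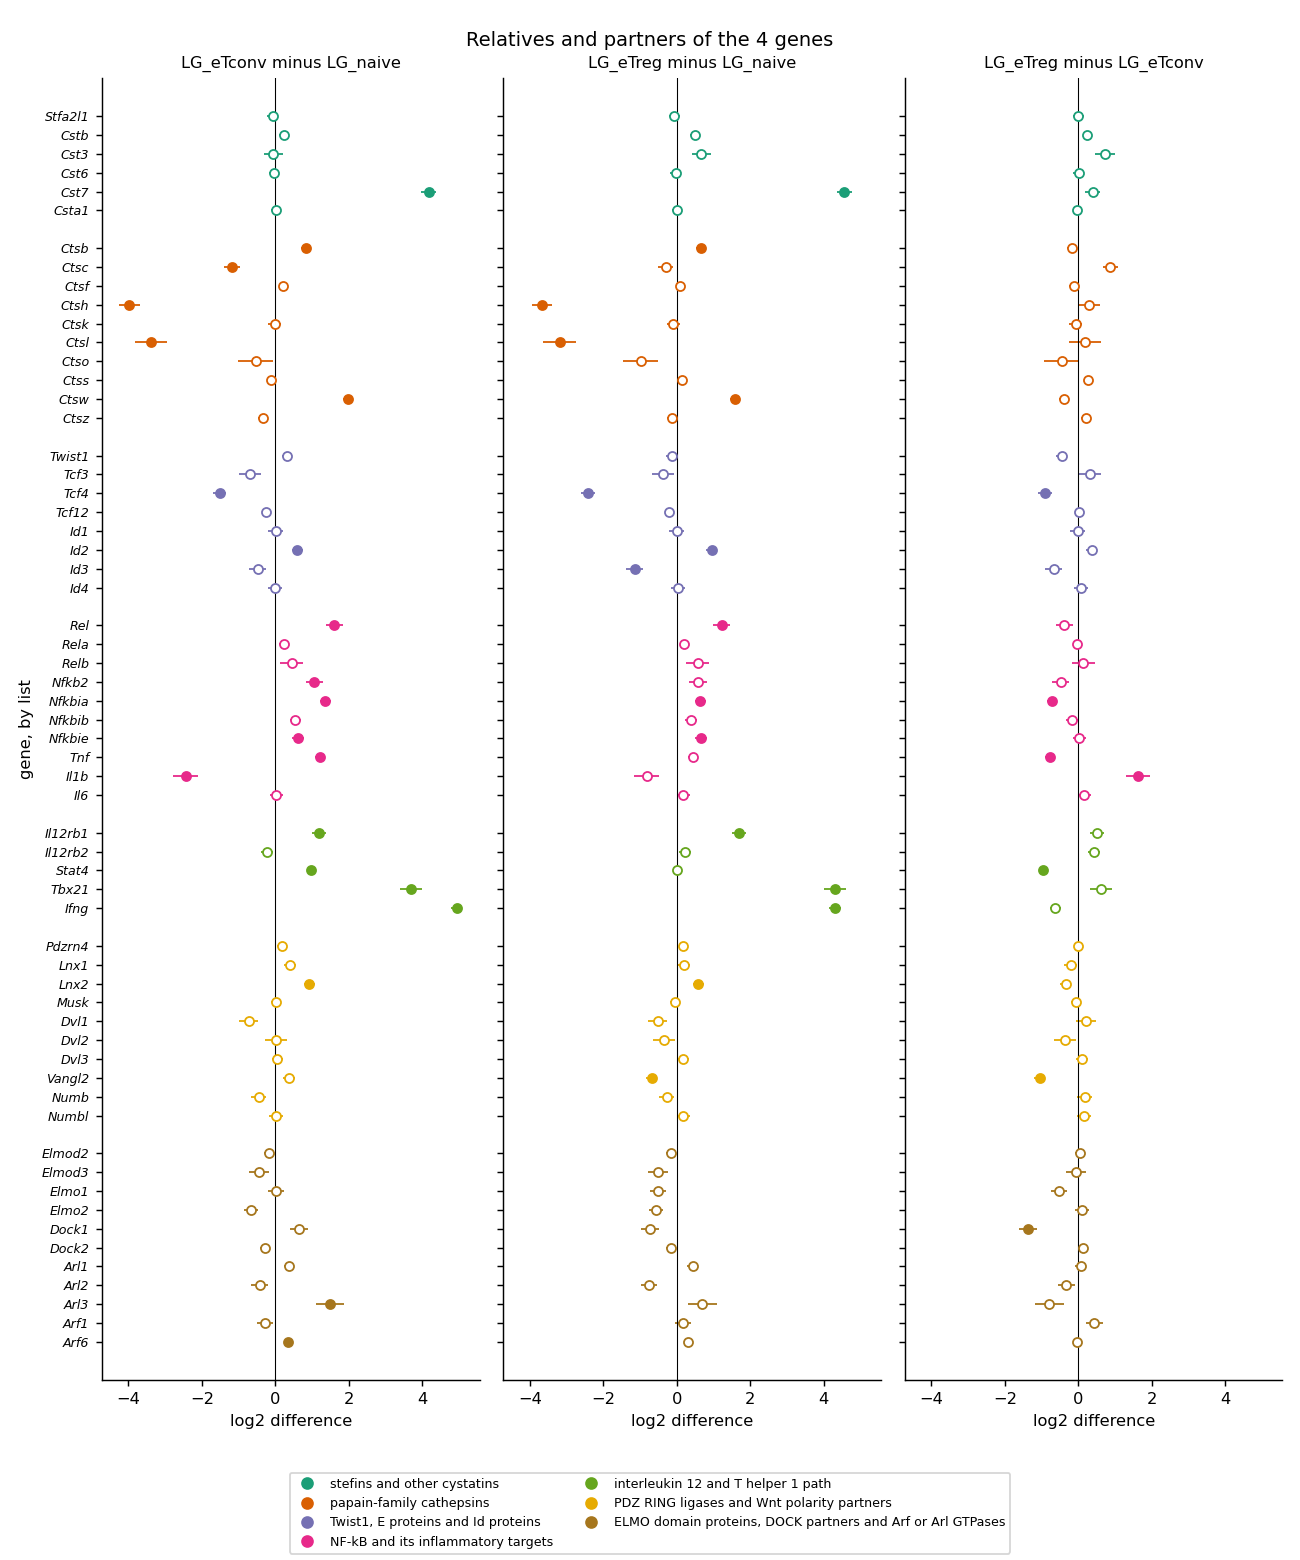
Log2 difference (horizontal axis) with its standard error for each of the measured relatives and partners of the 4 genes (vertical axis, coloured by list) in the 3 gland comparisons. Filled points have a limma adjusted p under 0.05 and open points do not. Cst7, Tbx21 and Ifng lie above 3.6 in both comparisons with LG_naive, and Ctsh and Ctsl lie below -3.1.

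Twist2 is listed here with Twist1, its E protein partners and the Id proteins that compete for them. Of 8 genes, 1 rose and 1 fell in LG_eTconv against LG_naive (median -0.14), 1 rose and 2 fell in LG_eTreg against LG_naive (-0.18), and 1 was lower in LG_eTreg than in LG_eTconv (0.01). Tcf4, which encodes an E protein, averaged 3.57 ± 0.29 in LG_eTreg, 4.47 ± 0.12 in LG_eTconv and 5.99 ± 0.28 in LG_naive (SD, n = 3 each). It differed from LG_naive by -2.43 in LG_eTreg (limma adjusted p = 7.25e-05) and by -1.52 in LG_eTconv (0.000786), and LG_eTreg minus LG_eTconv was -0.91 (0.0244). Of 8 monocyte and macrophage markers 6 also fell in each effector subset against LG_naive. Of 4 B cell markers 3 fell in LG_eTreg and 0 in LG_eTconv. The part of other cells' transcripts in the Tcf4 differences was not tested. Id2, an inhibitor of E proteins, rose by 0.95 in LG_eTreg (0.00394) and by 0.59 in LG_eTconv (0.0335). Id3 fell by 1.14 in LG_eTreg (0.0131), while LG_eTconv minus LG_naive was -0.48 (0.249). The Tcf4 call between effector subsets ended without any one of the LG_eTconv arrays, LG_eTreg 1 or LG_eTreg 3 (adjusted p up to 0.0951). The Id2 call in LG_eTconv ended without any one of the LG_eTconv arrays, LG_naive 1 or LG_naive 3 (up to 0.111). Another Id2 probe set, above the limit on all 9 gland arrays, gave 0.81 in LG_eTconv and 1.26 in LG_eTreg against LG_naive. The remaining Id2 probe set, above the limit on 1 gland array, gave 0.90 and 0.56.

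Twist2 is known in mice to restrain cytokine genes driven by NF-kB, and NF-kB subunits, their inhibitors and target cytokines were listed with it. Of 10, 5 rose and 1 fell in LG_eTconv against LG_naive (median 0.58), 3 rose and 0 fell in LG_eTreg against LG_naive (0.51), and 1 was higher and 2 lower in LG_eTreg than in LG_eTconv (-0.09). Rel, which encodes the subunit c-Rel, rose by 1.22 in LG_eTreg (limma adjusted p = 0.00983) and by 1.60 in LG_eTconv (0.00203). Nfkbia, which encodes the inhibitor IkB alpha, measured 7.50, 7.49 and 7.31 in LG_eTreg, 7.86, 8.32 and 8.27 in LG_eTconv and 6.66, 6.91 and 6.80 in LG_naive. It rose against LG_naive by 0.64 in LG_eTreg (0.0233) and by 1.36 in LG_eTconv (0.000376), and was lower in LG_eTreg than in LG_eTconv (difference -0.72, 0.0235). Tnf measured 5.75, 5.82 and 5.70 in LG_eTreg, 6.75, 6.56 and 6.29 in LG_eTconv and 5.39, 5.24 and 5.31 in LG_naive. It was higher by 1.22 in LG_eTconv than in LG_naive (0.000365) and lower by 0.78 in LG_eTreg than in LG_eTconv (difference -0.78, 0.00915), and LG_eTreg minus LG_naive was 0.44 (0.0663, but 0.0425 without LG_eTconv 1 and 0.0384 without LG_eTconv 3). The LG_eTconv arrays were the highest of the gland for Nfkbia and Tnf, and any part of Twist2 in the levels of these genes was not tested. Il1b went the other way: it averaged 4.32 ± 0.67 in LG_eTreg, 2.70 ± 0.16 in LG_eTconv and 5.15 ± 0.41 in LG_naive, and fell by 2.45 in LG_eTconv against LG_naive (0.00142). LG_eTreg minus LG_eTconv was 1.62 for Il1b (0.0244). Between effector subsets, the Nfkbia call ended without any one of the LG_eTreg arrays, LG_eTconv 2 or LG_eTconv 3 (adjusted p up to 0.0881), and the Il1b call without any one of the LG_eTconv arrays, LG_eTreg 2 or LG_eTreg 3 (up to 0.0875). The Nfkbia call in LG_eTreg against LG_naive ended without LG_eTreg 1, LG_eTreg 2, LG_naive 1 or LG_naive 3 (up to 0.0754). The monocyte and macrophage markers given above fell with Il1b in LG_eTconv against LG_naive. They also fell in LG_eTreg against LG_naive, where the Il1b difference was -0.83 and did not pass (limma adjusted p = 0.174). Between the effector subsets 1 of 8 markers was higher in LG_eTreg (median 0.10). The part of these markers' cells in the Il1b signal was not tested.

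Most of the interleukin 12 and T helper 1 genes rose in both effector subsets. Of 5, 4 rose and 0 fell in LG_eTconv against LG_naive (median 1.18), 3 rose and 0 fell in LG_eTreg against LG_naive (1.68), and 1 was lower in LG_eTreg than in LG_eTconv (0.43). Ifng averaged 8.75 ± 0.20 in LG_eTreg, 9.37 ± 0.05 in LG_eTconv and 4.44 ± 0.27 in LG_naive, and rose by 4.31 and 4.93 in the effector subsets (limma adjusted p = 2.99e-06 in LG_eTreg and 8.34e-07 in LG_eTconv). Tbx21, which encodes the T helper 1 regulator T-bet, rose by 4.31 in LG_eTreg (4.86e-05) and by 3.68 in LG_eTconv (8.77e-05). Il12rb1, a receptor chain for interleukin 12, rose by 1.68 in LG_eTreg (0.000763) and by 1.18 in LG_eTconv (0.00446). Stat4, which carries the interleukin 12 signal, measured 7.06, 6.96 and 6.85 in LG_eTreg, 7.88, 7.90 and 7.98 in LG_eTconv and 6.86, 6.87 and 7.10 in LG_naive. It measured 7.46 on Spl_CD4 and 7.51 on Spl_CD8. Of the gland arrays the LG_eTconv arrays alone were raised. LG_eTconv minus LG_naive was 0.97 (0.000468), LG_eTreg minus LG_eTconv was -0.96 (0.00114) and LG_eTreg minus LG_naive was 0.01 (0.974).

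For Pdzrn3, 10 PDZ RING ligases and Wnt polarity partners were measured. In LG_eTconv against LG_naive 1 rose and 0 fell (median 0.04), in LG_eTreg against LG_naive 1 rose and 1 fell (0.05), and 1 was lower in LG_eTreg than in LG_eTconv (-0.03). The first gene was Lnx2, given above. Vangl2, a core protein of planar cell polarity, measured 2.65, 2.68 and 2.15 in LG_eTreg, 3.60, 3.55 and 3.48 in LG_eTconv and 3.13, 3.09 and 3.32 in LG_naive. It was lower in LG_eTreg than in LG_eTconv (difference -1.05, SE 0.15, limma adjusted p = 0.00483) and than in LG_naive (-0.68, 0.0235), and LG_eTconv minus LG_naive was 0.37 (0.182). The second Vangl2 call ended without LG_naive 3 (0.0858) and with a trended and robust prior in limma (0.0798). It also ended without LG_naive 1, LG_eTconv 1 and LG_eTreg 3 together (0.0687). The other Vangl2 probe sets lay below background on the gland arrays. With the mean of all Vangl2 probe sets, LG_eTreg minus LG_eTconv was -0.30 (0.206) and LG_eTreg minus LG_naive was -0.29 (0.144).

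For Elmod1, 11 ELMO domain proteins, DOCK partners and Arf or Arl GTPases were measured. In LG_eTconv against LG_naive 2 rose and 0 fell (median -0.18), in LG_eTreg against LG_naive 0 passed the limma test (-0.16), and 1 was lower in LG_eTreg than in LG_eTconv (-0.04). Arl3, a GTPase of lipid-modified cargo, averaged 6.41 ± 0.23 in LG_eTreg, 7.20 ± 0.18 in LG_eTconv and 5.71 ± 0.90 in LG_naive, and rose by 1.49 in LG_eTconv (limma adjusted p = 0.0376). LG_naive 1 measured 4.70, against 6.41 and 6.03 on the other LG_naive arrays, and without it the Arl3 difference was 0.98 (0.0142). Arf6, a GTPase of the cell edge and endocytic recycling, rose by 0.35 in LG_eTconv (0.0413, and 0.0726 with the replicate number as a block). The 3 other Arf6 probe sets, above the limit on all 9 gland arrays, gave 0.99, 1.28 and 0.89. With the mean of its probe sets, LG_eTreg minus LG_naive was 0.63 for Arf6 and passed (0.00867). The Arl3 call ended when any single array but LG_naive 1 or LG_naive 2 was left out (adjusted p up to 0.11), and the Arf6 call when any but LG_eTreg 2 or LG_eTreg 3 was (up to 0.129). Dock1, an exchange factor for Rac that pairs with ELMO proteins, measured 2.62, 2.43 and 2.27 in LG_eTreg, 4.17, 3.62 and 3.63 in LG_eTconv and 2.71, 3.58 and 3.21 in LG_naive. It was lower in LG_eTreg than in LG_eTconv (difference -1.37, SE 0.24, 0.0122), and LG_eTconv minus LG_naive was 0.64 (0.135).

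The measured protein-coding genes nearest to each of the 4 on the chromosome were taken, 2 on each side by RefSeq order (GRCm38.p6). They were mostly without a call in LG_eTconv minus LG_naive. Unmeasured genes were passed over, so some are not adjacent. Between Stfa3 and Csta2 lay 6 of these, and between Stfa3 and Stfa2l1 8. There were 9 between Twist2 and Cops9, and 6 between Elmod1 and either Idh3a or Acsbg1. Next to Stfa3, the stefin gene Csta2, Stfa2l1, the calcium receptor gene Casr and the costimulatory gene Cd86 gave differences in LG_eTconv minus LG_naive of -0.12, -0.07, -0.00 and 0.79, none of which passed the limma test. With the mean of its probe sets Cd86 was higher by 1.20 in that comparison (0.0328), and without LG_eTreg 2 its difference LG_eTreg minus LG_eTconv was -1.62 (0.0159). Stfa2l1 and Casr lay below the limit on all gland arrays. Next to Twist2, Asb1, the clock gene Per2, Ndufa10 and Cops9 differed by -0.08, 0.44, 0.01 and 0.13 in that comparison, with no call. Per2 was lower in LG_eTreg than in LG_eTconv (-1.49, limma adjusted p = 0.0490), a call that ended when any 1 array was left out (0.0517 to 0.145). Next to Pdzrn3, Gxylt2, Rybp, Cntn3 and Chl1 had no call in any comparison. Next to Elmod1, Slc35f2 was lower in LG_eTconv than in LG_naive (-0.89, 0.00266) and higher in LG_eTreg than in LG_eTconv (1.32, 0.000645), opposite to Elmod1 in both. Acsbg1, an acyl-CoA synthetase gene on the other side, averaged 6.48 in LG_eTreg, 4.48 in LG_eTconv and 3.16 in LG_naive, and LG_eTreg minus LG_naive was 3.32 (2.99e-06). It was also higher in LG_eTconv than in LG_naive, by 1.32 (0.000218), in the direction of Elmod1. Its highest group was LG_eTreg, where Elmod1 averaged 1.86. Rab39 and Idh3a, the other measured neighbours of Elmod1, had no call.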

How the data were processed

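RNA of 9 lacrimal gland and 2 spleen T cell samples was hybridised to perfect-match probe set arrays. The submitters' processing notes name RMA and Partek without versions, and the deposited values were read as log2 signals because RMA works on that scale. No source used here states the base. RMA corrects background and quantile-normalizes, which compresses low signals, so folds against dim groups may be understated. Per the labels, RNA was amplified with NuGEN Ovation and its integrity number was above 9.1 on all samples but 1 (7.8), which the labels do not tie to a group.

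The table held 45141 probe sets. After 104 controls were left out, 28898 had 1 gene symbol, and the one with the highest mean over the gland arrays stood for each of 17097 genes. Limma 3.58.1 in R 4.3.3 fitted a mean per group over the 9 gland arrays (6 residual degrees of freedom), with two-sided moderated tests and Benjamini-Hochberg adjustment over all genes. The method was tested on simulated data. Where all arrays of a group lay below the background limit, folds were computed against the limit and given as at least that size. Where some arrays did, the difference is also given with those values raised to the limit. The spleen arrays, 1 per group, entered no test.

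The 4 genes, the lists and the naming rule were chosen with earlier results of these data known. The rule named the 4 genes, their closest relatives, up to 4 called genes of each list with the largest difference, the 5 genes most correlated with each of the 4, and fixed checks of the labels. The gene lists were stefins and cystatins, cathepsins, Twist1 with E and Id proteins, and NF-kB and targets. The others were the interleukin 12 path, PDZ RING ligases with Wnt polarity partners, and ELMO, DOCK and Arf or Arl genes. The marker lists were neutrophil, monocyte and macrophage, mast cell, B cell, fibroblast, gland epithelium, neuron and T cell. Of 4 B cell markers, 3 were lower in LG_eTreg than in LG_naive and 0 passed in LG_eTconv minus LG_naive. Neighbouring genes, and the genes plotted beside Stfa3, were chosen after the values were seen. Stfa1, Stfa2, BC100530, BC117090, Nfkb1, Elmo3, Retnlg, Ly6g and Lck had no probe set carrying that symbol alone and are not reported here. Arrays were not paired by replicate number, because no label ties a number to a mouse.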

Additional observations from a re-analysis of the deposited data

Results flagged for a closer look

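Stfa3 measured 6.22 on Spl_CD4, above that array's background limit and above all 3 LG_naive arrays, on an array that enters no test. Pdzrn3 measured 2.18 on Spl_CD4, and Elmod1 measured 2.02 on Spl_CD8, each also above its array's limit and above all LG_naive arrays. Twist2 was below the limit on both spleen arrays. Each spleen group is 1 array, so none of these values has a replicate check.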

How the results depend on the processing

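Raising all lower values to 1.70 gave Twist2 differences of 4.21 in LG_eTconv minus LG_naive and -4.21 in LG_eTreg minus LG_eTconv. Pdzrn3 was 5.52 in LG_eTconv minus LG_naive and 0.38 in LG_eTreg minus LG_naive, and Elmod1 5.54 and 0.29, because this setting raises their dim groups by construction. Leaving out 1 array at a time gave LG_eTconv minus LG_naive of 8.00 to 8.84 for Stfa3, 5.73 to 6.19 for Twist2, 6.07 to 6.43 for Pdzrn3 and 6.08 to 6.42 for Elmod1. For LG_eTreg minus LG_eTconv the ranges were -7.62 to -6.95, -6.22 to -5.76, -5.22 to -5.06 and -5.54 to -5.10 in the same order, and for LG_eTreg minus LG_naive 0.63 to 1.47, -0.07 to 0.00, 0.93 to 1.29 and 0.67 to 1.11. Calls over all genes then ran from 1770 to 2414, 1512 to 1845 and 683 to 969. These are for the effector conventional against naive, regulatory against naive and regulatory against conventional comparisons. In the same order, calls among the 60 listed genes ran from 16 to 20, 12 to 16 and 4 to 9. The last was 4 without LG_eTconv 2 or LG_eTreg 3, and the cause was not tested. With the replicate number as a block, calls were 2271, 1929 and 906, and those among the 60 listed genes 20, 16 and 8. Of 9 same-numbered pairs of arrays 3 correlated over 0.1 (-0.10 to 0.28), and 6 of 9 arrays correlated best with their own number, a hint from the data and not the design. The block ended calls for Arf6 in LG_eTconv minus LG_naive (0.0726) and Per2 in LG_eTreg minus LG_eTconv (0.106) and gained one for Ctsc in LG_eTreg minus LG_eTconv (0.0399). For the genes named, 3277 of 3393 results under alternatives kept their side of the threshold, 86 lost a call and 30 gained one. The sign differed in 97, and 0 of these were called in either setting. Low signals near the background limit of 0.94 to 1.70 have no order.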
